A study of Mus musculus with 109 samples.

Results

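The genes described here encode the proteins that hold, dock and fuse synaptic vesicles, together with their relatives on other membranes of the cell. They were chosen by name: every listed gene whose symbol begins with Syt, Stx, Vamp or Snap and a number, or is Syn1 to Syn3, Cplx1 to Cplx4, or begins with Stxbp, Sv2, Rab3, Rims or Unc13. Of the 15973 genes in the table, 80 were chosen in this way. They comprised 12 synaptotagmins, 5 synapsins and SV2 proteins, 7 vesicle SNAREs, 18 target SNAREs, 10 SNARE regulators, 8 priming and active zone genes, 4 Rab3 GTPases and 16 genes matched by their letters alone, such as Rab31 and Snap91. The cells were 109 single cells from cerebella of C57BL/6 mice at postnatal day 7, enriched for granule cell progenitors on a Percoll density gradient and captured one at a time on C1 Fluidigm chips. The labels name no transgene and no treatment. Each title carries the code of 1 of 6 library groups, with 18 or 19 cells to a code, and these groups served as the replicates. As no label ties a library group to an animal, culture or batch, the p-values below measure the spread between library groups, which may be technical. The raw counts of a cell were scaled to 1e+06 (CPM), and total counts ran from 15071 to 8616017 per cell.

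Neurotransmitter is released when a vesicle SNARE, a protein of the Vamp family, zips together with syntaxin and a Snap25-type protein on the target membrane. Unc13 proteins prepare the assembly of this complex, complexins clamp and promote it, and synaptotagmins trigger fusion when calcium enters. Synapsins tether the reserve vesicles, SV2 proteins are carried in the vesicle membrane, and Rab3 with Rims proteins links vesicles to the active zone. In the cerebellum, granule cell progenitors divide in the outer external granule layer, leave the cell cycle, extend parallel fibres and form glutamatergic synapses on Purkinje cells only after this. Many syntaxins, Vamp proteins and Snap proteins act in every cell, at the Golgi apparatus, endosomes and plasma membrane.

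Cells were classed on Mki67, a gene of dividing cells, and on Rbfox3, which encodes the neuronal nuclear protein NeuN. The 32 Mki67-high cells had at least 100 CPM of Mki67 and the 75 Mki67-low cells had less than 10 CPM. The remaining 2 cells lay between at 21.3 and 66.4 CPM and entered neither class. The Mki67-low cells were divided further into 31 Rbfox3-low cells with less than 10 CPM of Rbfox3, 12 cells between and 32 Rbfox3-high cells with at least 100 CPM. The cells nearest to the Mki67 limits had 9.27 and 132 CPM, and those nearest to the Rbfox3 limits had 9.88, 95.2 and 130 CPM or, just above the lower limit, 11.1 CPM. Rbfox3 was not confined to Mki67-low cells, since 19 of 32 Mki67-high cells had at least 10 CPM. Of the 6 markers of the granule cell lineage, Neurod1 reached 10 CPM in 105, Zic1 in 97, Pax6 in 85, Zic2 in 46 and Barhl1 in 34 of the 109 cells, whereas Atoh1, a gene of the progenitors, reached it in 11. Their summed level ran from 19.7 CPM through a median of 2491 CPM to 17710 CPM, and 26 cells had at least 4 of them at 50 CPM. The classes by Mki67 are levels of a transcript and not phases of the cycle: the summed CPM of 6 proliferation markers, Mki67 included, had a median of 3403 in Mki67-high cells (177 to 9850) and 23.4 in Mki67-low cells (0 to 6901). At least 4 of these markers were at 50 CPM in 16 of 32 Mki67-high and 0 of 75 Mki67-low cells. Mki67 counts here in every Mki67-high and in no Mki67-low cell by the class limits, which therefore fix part of this difference and of the sums. By the same limits Mki67 was under 10 CPM in all Mki67-low cells, and no other of these markers was. Pcna and Top2a, which act in DNA replication and chromosome untangling, reached 10 CPM in 47 and 44 of the 109 cells. Every library group contributed to both classes of both comparisons, with 3 to 8 Mki67-high cells each.

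A number of cells also held genes of other cell types, and they were not spread evenly over the classes. At least 4 markers of another cell type list were at 50 CPM or more in 6 of 32 Mki67-high cells, 4 of 75 Mki67-low cells, 3 of 31 Rbfox3-low cells and 0 of 32 Rbfox3-high cells. The summed CPM of the 8 astroglial markers had a median of 376 in Mki67-high cells (0.2 to 16420), 157 in Rbfox3-low cells (0.258 to 31690) and 4.77 in Rbfox3-high cells (0 to 3373). None of the 8 astroglial markers was under 10 CPM in all Mki67-high or all Rbfox3-low cells, whereas 3 of them were in Rbfox3-high cells. The 8 oligodendrocyte lineage markers had medians of 58.9 CPM in Mki67-high and 6.31 CPM in Mki67-low cells. The 6 markers of GABAergic interneurons had a median sum of 28.8 CPM in Rbfox3-low cells (0 to 9738) and 0.883 CPM in Rbfox3-high cells (0 to 4812). The Mki67-low median was 1.42 CPM (0 to 9738), and the Mki67-high sums ran from 0 to 6757 CPM. Without the cells with genes of other types the Rbfox3-low median was 7.95 CPM (0 to 9738). The part of these interneuron markers in the Rbfox3 comparison was not tested further. The microglial sum had a median of 0 in every class, with 6 of 7 listed markers under 10 CPM in all Mki67-low cells. In 2 Mki67-high cells, over 10000 genes were detected, and both held astroglial, oligodendrocyte and microglial markers. Median total counts were 4157697 in Mki67-high, 3580460 in Mki67-low, 3786777 in Rbfox3-low and 3296194 in Rbfox3-high cells.

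Promoter sequences were available for 60 of the 80 genes, in 77 windows of 300 bases around annotated transcription starts (RefSeq, GRCm38.p6). The windows were searched on both strands for TTCAGCACC, the left part of the RE1 element. This element is bound by REST, a repressor that keeps many neuronal genes silent outside neurons. It was found in 122 of 32851 windows of all genes, or 0.371%, and in the windows of 2 of the genes, Syn1 and Unc13a. They are printed here, with Syt11 and Sv2b for comparison, because the first 2 carry the match, Syt11 had the highest level of all and Sv2b returns in both comparisons. Each sequence reads 5′ to 3′ along the gene's own strand, and capitals mark the match.
Syn1, chrX:20920869-20921168, minus strand: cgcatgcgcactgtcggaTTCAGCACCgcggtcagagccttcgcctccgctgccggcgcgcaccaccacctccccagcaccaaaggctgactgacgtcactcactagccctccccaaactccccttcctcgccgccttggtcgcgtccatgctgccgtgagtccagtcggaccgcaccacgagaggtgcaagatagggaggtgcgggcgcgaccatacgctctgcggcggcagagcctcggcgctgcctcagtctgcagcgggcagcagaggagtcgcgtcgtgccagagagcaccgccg
Unc13a, chr8:71671708-71672007, minus strand: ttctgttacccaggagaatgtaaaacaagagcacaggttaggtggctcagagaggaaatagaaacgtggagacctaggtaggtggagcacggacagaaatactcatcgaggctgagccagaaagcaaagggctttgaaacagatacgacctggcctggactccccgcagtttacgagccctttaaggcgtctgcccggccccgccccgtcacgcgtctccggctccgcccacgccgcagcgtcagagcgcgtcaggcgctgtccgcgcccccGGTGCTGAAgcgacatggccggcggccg
Syt11, chr3:88772550-88772849, minus strand: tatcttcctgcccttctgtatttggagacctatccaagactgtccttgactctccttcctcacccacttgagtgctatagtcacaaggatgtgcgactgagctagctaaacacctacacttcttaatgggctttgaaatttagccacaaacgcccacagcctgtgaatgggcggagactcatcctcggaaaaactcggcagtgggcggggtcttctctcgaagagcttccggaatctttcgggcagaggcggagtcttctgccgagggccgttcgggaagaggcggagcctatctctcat
Sv2b, chr7:75309213-75309512, minus strand: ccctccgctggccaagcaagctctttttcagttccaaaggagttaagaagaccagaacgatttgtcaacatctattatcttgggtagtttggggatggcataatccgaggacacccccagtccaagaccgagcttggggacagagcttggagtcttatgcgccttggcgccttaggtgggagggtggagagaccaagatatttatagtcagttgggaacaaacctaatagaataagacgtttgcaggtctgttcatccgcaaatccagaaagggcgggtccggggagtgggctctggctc
In Unc13a the match lies on the opposite strand and so reads GGTGCTGAA. These windows hold 33 CG dinucleotides for Syn1, 27 for Unc13a, 14 for Syt11 and 10 for Sv2b, beside a median of 18 over the 77 windows of these genes and 7 over the windows of all genes. A match describes the letters in a window and does not show binding.

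Transcripts of this machinery were thinly spread over the cells. In the typical cell, 10 of the 80 genes reached 10 CPM. Of the set, 2 genes, Syt11 and Snap25, reached 10 CPM in at least 50% of the 109 cells, as did 4.74% of all listed genes. A further 9 reached it in at least 25% of cells, and 38 did so in under 10%. Stxbp2, Unc13d and Stxbp3b never reached 10 CPM. The typical gene of the set reached 10 CPM in 10.6% of cells, beside 6.42% for the typical listed gene. Of the gene and cell pairs of the set, 68% had no count, and 44.7% of the others rested on 1 to 5 counts.

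**Figure D1:**
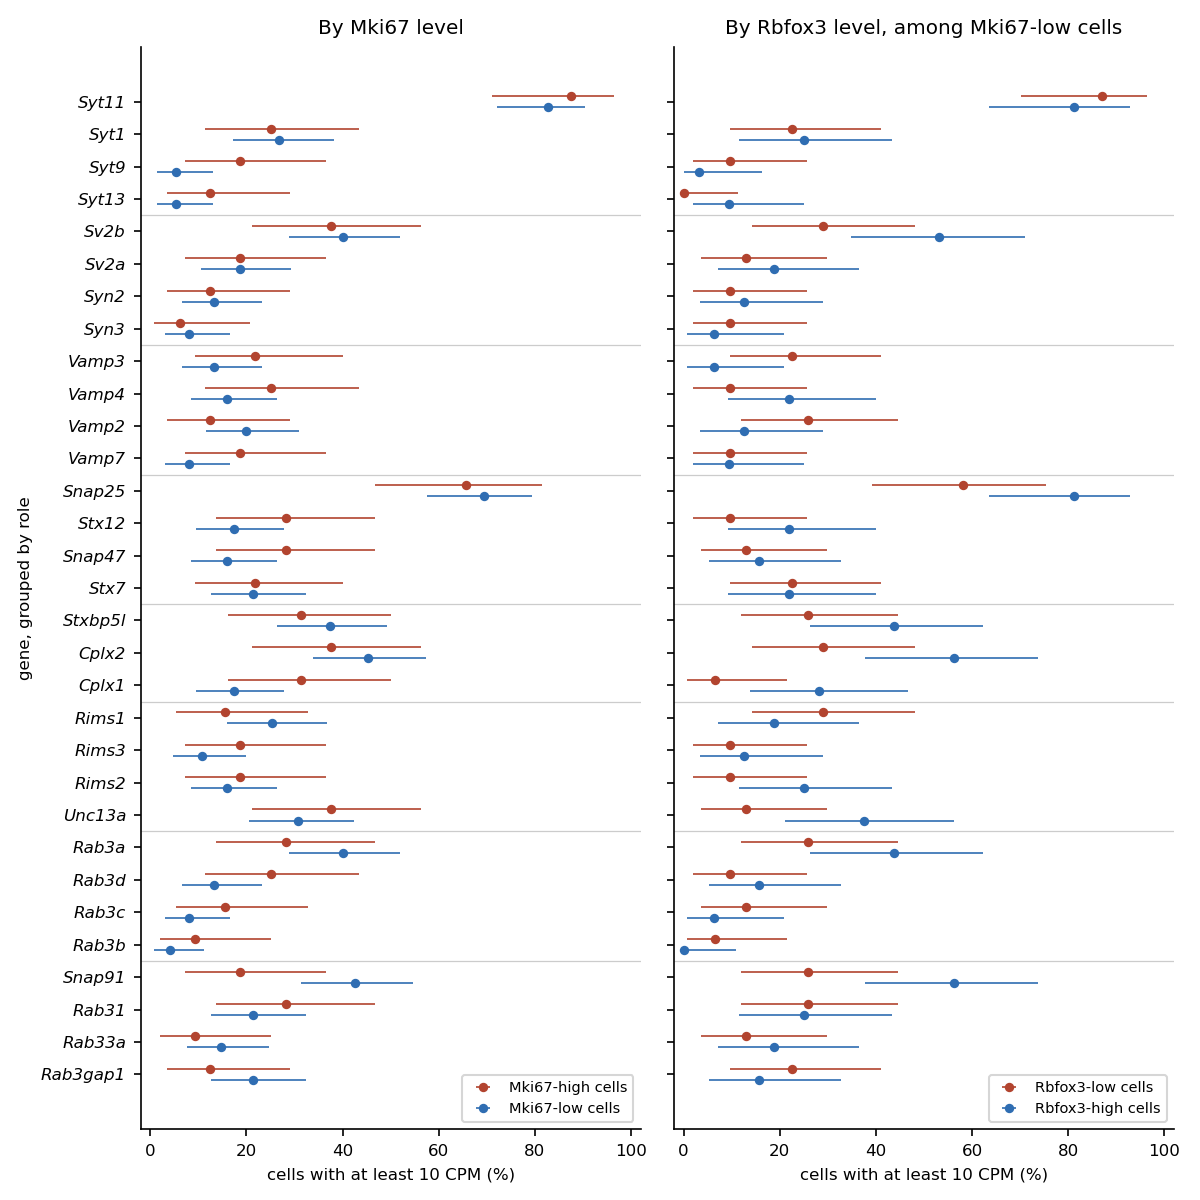
Share of cells with at least 10 CPM for up to 4 genes of each role with the highest mean CPM. Points are shares in percent and bars are exact (Clopper-Pearson) 95% intervals, which cover counting error only. Syt11 and Snap25 stood to the right of all others in every class, and the intervals of Mki67-high and Mki67-low cells overlapped for each gene plotted.

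Levels of different genes were compared per kilobase of annotated exon. Syt11 led with a mean of 184 CPM per kb over all cells, followed by Snap25 with 94.9 and Rab31 with 90.7 CPM per kb. Syt11 is a synaptotagmin that does not bind calcium and acts in vesicle traffic outside the release step. The calcium sensor of fast release, Syt1, had 20.8 CPM per kb, and the sensors Syt2 and Syt9 had 1.71 and 18.8 CPM per kb. Among the target SNAREs, Snap47 and Stx12 had 62.6 and 58.8 CPM per kb, and the neuronal syntaxin Stx1a had 2.46 CPM per kb. The synaptic Vamp genes were also low, with 10.4 CPM per kb for Vamp2 and 0.0266 CPM per kb for Vamp1, beside 30.7 CPM per kb for the broadly expressed Vamp3. Complexins 1 and 2 stood at 55.9 and 45.5 CPM per kb, Rab3a at 56.2 CPM per kb and Unc13a at 4.09 CPM per kb. Thus Snap25 was accompanied by far lower levels of Stx1a and Vamp2. These means give each cell the same weight and have no replicate error, since a few cells carried much of each gene: for genes at 10 CPM in 2 or more cells, the cell with the most counts held a median of 48.9% of the summed Mki67-high counts and 41.3% of the Mki67-low counts.

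Combinations of these genes were also counted cell by cell. Snap25 reached 10 CPM in 75 and Vamp2 in 19 of the 109 cells, so the low share of Vamp2 largely sets their joint count. Whether genes occurred together more or less often than their single shares give was not tested. Snap25 together with the synaptic vesicle SNAREs Vamp1 or Vamp2, each gene at 10 CPM or more, was found in 15 of 109 cells, or 13.8% (exact 95% interval 7.91% to 21.7%). Snap25 together with complexin 1 or 2 was found in 46 of 109 cells, or 42.2% (32.8% to 52%). Adding the calcium sensors Syt1, Syt2 or Syt9 left 17 cells, and adding an Unc13 gene left 9. By class, Snap25 with a complexin was found in 16 of 32 Mki67-high cells (31.9% to 68.1%) and in 28 of 75 Mki67-low cells (37.3%, 26.4% to 49.3%). Among Mki67-low cells it was found in 6 of 31 Rbfox3-low cells (19.4%, 7.45% to 37.5%) and 15 of 32 Rbfox3-high cells (46.9%, 29.1% to 65.3%). Snap25 with Vamp1 or Vamp2 had the larger share in Rbfox3-low cells, with 7 of 31 (22.6%, 9.59% to 41.1%). In Rbfox3-high cells it was 3 of 32 (9.38%, 1.98% to 25%). The intervals of the 2 Rbfox3 classes overlapped for both combinations. With a sensor and an Unc13 gene added to Snap25 and a complexin, the combination was found in 0 of 31 Rbfox3-low cells. The upper end of the exact 95% interval was 11.2%. A different limit, 3 divided by 31 cells, which approximates a 1-sided 95% limit, was 9.68%. This combination was found in 3 of 32 Rbfox3-high cells and 2 of the 12 cells between. In Mki67-high cells it was found in 3 of 32, or 1 of 26 without the cells with genes of other types. Without the cells that held genes of other cell types, Snap25 and a complexin were together in 12 of 26 Mki67-high cells, 27 of 71 Mki67-low cells and 6 of 28 Rbfox3-low cells. Snap25 with Vamp1 or Vamp2 then remained in 1 of 26 Mki67-high cells, beside 3 of 32 before. Intervals and limits treat cells as independent and cover counting error only, not the spread between library groups. The libraries carry no molecular identifiers, and 10 CPM in one cell means different read numbers at different depths.

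**Figure D2:**
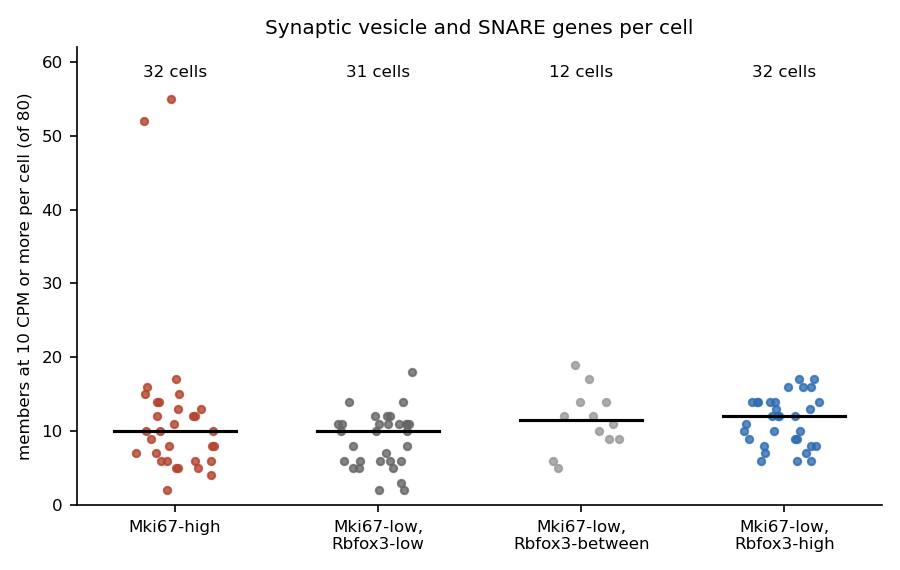
Number of the 80 genes at 10 CPM or more in each cell, by class, with 1 point a cell and the median as a line. Medians lay between 10 and 12 in all classes, and 2 Mki67-high cells stood above 50.

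The number of these genes per cell differed little between the classes. The count at 10 CPM or more had a median of 10 in Mki67-high cells (2 to 55) and 11 in Mki67-low cells (2 to 19), and of 10 in Rbfox3-low cells (2 to 18) and 12 in Rbfox3-high cells (6 to 17). By library group, the medians ran from 5.5 to 16 in Mki67-high and from 8 to 11 in Mki67-low cells, so the classes overlapped. They ran from 7 to 10.5 in Rbfox3-low and from 7.5 to 13 in Rbfox3-high cells, and were higher in Rbfox3-high cells in 4 of the 6 library groups. Without the cells with genes of other types the Mki67-high median was 8.5. The typical Mki67-high cell had 2168 genes of any kind at 10 CPM or more and the typical Mki67-low cell 1679. With counts thinned to the same total in every cell, medians of 20 and 19 genes of the set had a count in Mki67-high and Mki67-low cells; the part of depth in the other results was not tested. Of the 80 genes, 32.5% reached 10 CPM in a larger share of Mki67-low than of Mki67-high cells, beside 19.9% of all listed genes. The share was smaller in Mki67-low cells for 51 and equal for 3, and the median difference in share was -3.12 percentage points for the set and also -3.12 for all listed genes. In Rbfox3-high against Rbfox3-low cells the same quantity was 50% for the set and 28.9% for all listed genes, with 27 of the 80 genes smaller and median differences of 1.21 and 0 percentage points.

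To ask how the machinery differed between Mki67-high and Mki67-low cells, the raw counts of a class were summed within each library group and compared with edgeR's quasi-likelihood test, with Benjamini-Hochberg adjustment over all genes and a threshold of 0.01. Of the 80 genes, 56 passed the filter on low counts and 0 were called, beside 2 called of 9083 genes tested, or 0.022%. The called genes, Cdc20 and Tacc3, both act in mitosis and were lower in Mki67-low cells; with the library groups as a block, 0 genes were called. Without a threshold, 44 of the 56 genes had higher sums in Mki67-low cells and 12 had lower ones. Of all genes tested, 54.8% had higher ones. The median log2 fold change of the 56, Mki67-low over Mki67-high, was 1.25, beside 0.18 for all genes tested. Of the 56, 8 had an unadjusted p under 0.05, or 6 with higher and 2 with lower sums in Mki67-low cells, beside 7.33% of all genes tested. Sums differed in the same direction in 6 of 6 library groups for 5 of the 56, beside 5.39% of all genes tested, and the 6 sums of the classes did not overlap for 2, beside 1.08%. The median difference between the classes, taken within each library group, was above 0 in 5 of the 6 library groups for the set, from -0.29 to 2.25, and above that of all tested genes in each of the 6. The estimate depended on the scale: when the log2(CPM + 1) of single cells was averaged instead of summing counts, the medians were -0.06 for the set and -0.43 for all genes. Leaving out the cells with genes of other cell types gave medians of 0.99 for the set and -0.04 for all genes, and leaving out the cells of over 10000 genes alone gave 0.80 and -0.04. In sums, fewer cells with a gene and less RNA per cell cannot be told apart.

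The Rab3 regulator Rab3gap1 showed sums without overlap. It encodes a subunit of the complex that switches Rab3 off. Its sums ran from 0.107 through a median of 5.13 to 13.3 CPM in Mki67-high cells and from 35.8 through 71.2 to 194 CPM in Mki67-low cells. Every Mki67-low sum lay above every Mki67-high sum. Its log2 fold change was 4.32 (SE 1.54, higher in 6 of 6 library groups, unadjusted p 0.0121, edgeR adjusted p 0.537), and DESeq2 called it at an adjusted p of 0.00335. By cells the gap was smaller, with 4 of 32 Mki67-high and 16 of 75 Mki67-low cells at 10 CPM. The gene lies at chr1:127868773-127943868 (GRCm38) on the plus strand. At the other end, Syt13 and Stx4a had the lowest estimates of the tested genes of the set and are given with their families.

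**Figure D3:**
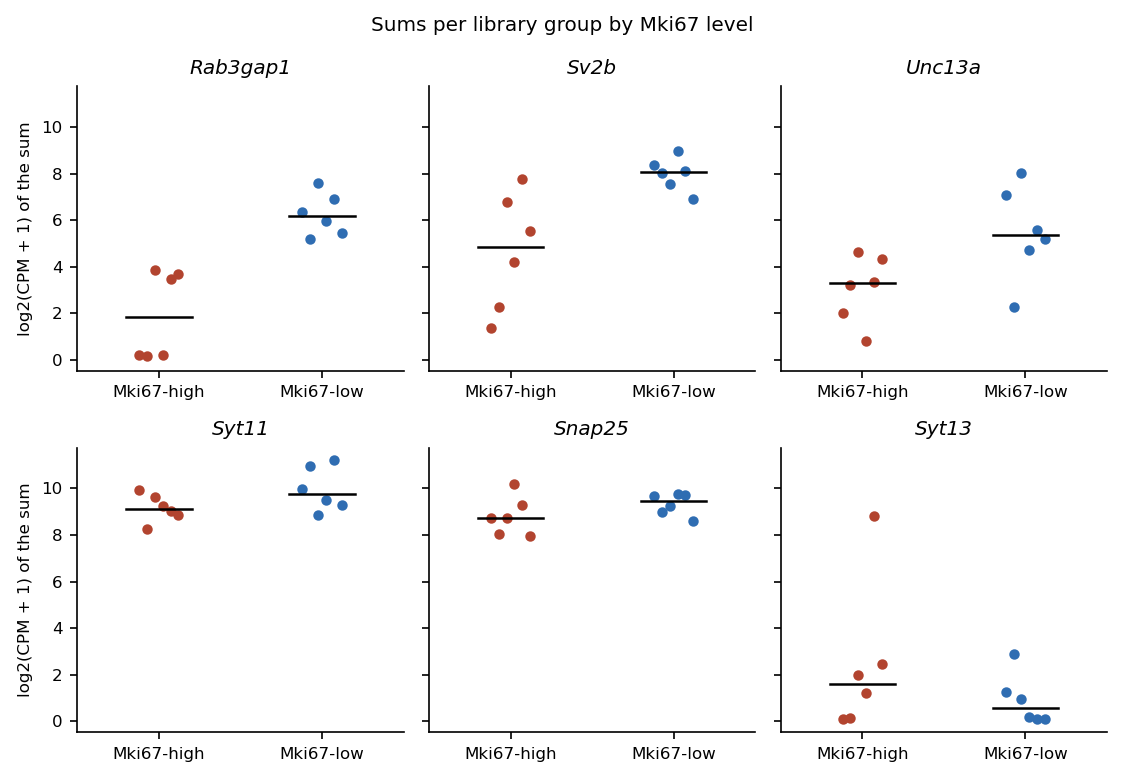
Sums per library group in Mki67-high and Mki67-low cells, as log2(CPM + 1), for 6 genes, with 1 point a library group and the median as a line. The classes did not overlap for Rab3gap1, overlapped for Sv2b, Unc13a, Syt11 and Snap25, and for Syt13 1 Mki67-high sum stood far above the rest.

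Vesicle membrane and tethering genes had sums on the higher side in Mki67-low cells for 5 of 5 tested, beside 54.8% of all genes tested. The direction was not stable for each gene. Syn1 turned lower on the mean of log2(CPM + 1), with DESeq2, without the cells with genes of other types, without the 2 cells of over 10000 genes and without library groups 1, 3 or 6. Sv2a turned lower without library group 3, and Syn2 with Mki67 limits of 200 CPM and 0 counts. Sv2b encodes a glycoprotein of the vesicle membrane. The gene has exons that overlap 1500012K07Rik on the other strand. Its sums ran from 1.57 through 31 to 216 CPM in Mki67-high and from 119 through 267 to 497 CPM in Mki67-low cells. The ranges overlapped, and the sum was higher in Mki67-low cells in 6 of 6 library groups (log2 fold change 2.33, SE 1.04, unadjusted p 0.0387, edgeR adjusted p 0.67). The share of cells at 10 CPM was nearly the same, with 12 of 32 Mki67-high cells and 30 of 75 Mki67-low cells. For Syn3, a synapsin, sums ran from 0.118 through 0.347 to 5.02 CPM and from 0.015 through 16.3 to 180 CPM, with a higher sum in 3 of 6 library groups (log2 fold change 5.51, SE 2.17, edgeR adjusted p 0.6). Sv2a and Syn2 had medians of 8.24 and 2.95 CPM in Mki67-high sums and of 28.8 and 12.9 CPM in Mki67-low sums, with overlapping ranges. Syn1, which carries the RE1 match printed above, was at 10 CPM or more in 6 of 32 Mki67-high and 11 of 75 Mki67-low cells.

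The synaptotagmins had no common direction, with 3 of 5 tested higher and 2 lower. Syt11 ran from 307 through 564 to 970 CPM in Mki67-high sums and from 467 through 871 to 2360 CPM in Mki67-low sums, and was higher in 5 of 6 library groups. Its log2 fold change was 1.02 (SE 0.52, unadjusted p 0.0685, edgeR adjusted p 0.699), and 28 of 32 Mki67-high cells already had it at 10 CPM. Syt1 had medians of 41.8 and 140 CPM in overlapping ranges. Syt13, an atypical synaptotagmin, ran from 0.075 through 2.13 to 449 CPM in Mki67-high sums and from 0.05 through 0.52 to 6.46 CPM in Mki67-low sums, and had the lowest estimate of the set (log2 fold change -5.49, SE 2.31, edgeR adjusted p 0.652). A single cell held 97.6% of its Mki67-high counts, and without library group 5 the estimate was 0.38. Syt9, a calcium sensor of fast release, was at -2.44 (SE 2.04, adjusted p 0.822) and had the opposite sign, 2.3, without library group 2. A single cell held 87.1% of its Mki67-high counts.

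Snap25, the membrane-bound partner of syntaxin, ran from 251 through 427 to 1178 CPM in Mki67-high and from 390 through 714 to 859 CPM in Mki67-low sums. These ranges overlapped, with a log2 fold change of 0.35 (SE 0.54, adjusted p 0.913) and a higher sum in 5 of 6 library groups. It was at 10 CPM or more in 21 of 32 Mki67-high and 52 of 75 Mki67-low cells. Stx7, an endosomal syntaxin, and Vamp3, a broadly expressed vesicle SNARE, were higher in 6 of 6 library groups. Their log2 fold changes were 1.86 (SE 1.54) and 1.27 (SE 1.77), with adjusted p of 0.817 and 0.906, and both ranges overlapped. Stx4a, a syntaxin of the general plasma membrane, had sums from 0.263 through 1.76 to 331 CPM in Mki67-high cells and from 0.056 through 0.242 to 6.91 CPM in Mki67-low cells. It had a log2 fold change of -4.96 (SE 2.2, unadjusted p 0.0378, edgeR adjusted p 0.67), but a single cell held 90.3% of the Mki67-high counts. Without library group 1 the estimate was 0.0185. Its exons overlap a gene on the other strand, and the strand setting of the counting is not given in the sources used here. Stx12 and Snap47 were at 10 CPM in 9 of 32 Mki67-high cells each, beside 13 and 12 of 75 Mki67-low cells. Stx5a, a Golgi syntaxin, showed one of the widest gaps in shares, with 13 of 32 against 17 of 75 cells. All 4 tested vesicle SNAREs had estimates above 0, but Vamp3, Vamp4 and Vamp7 turned below 0 on the mean of log2(CPM + 1). Of the target SNAREs, 10 of 15 were above 0, and on the mean of log2(CPM + 1) 4 of 15 were. Of all genes tested, 54.8% were above 0 in sums and 24.4% on the mean of log2(CPM + 1). For Vamp4, Vamp2 and Vamp7 the medians of the sums were 17.7, 8.74 and 9.87 CPM in Mki67-high and 83, 59.8 and 28.3 CPM in Mki67-low cells, in overlapping ranges.

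Of the SNARE regulators, 7 of 7 tested had estimates above 0 and none passed, beside 54.8% of all genes tested above 0. On the mean of log2(CPM + 1) 4 of 7 were above 0, beside 24.4% of all genes tested. Stxbp5l, or tomosyn-2, which competes with vesicle SNAREs, ran from 3.35 through 120 to 311 CPM in Mki67-high and from 159 through 240 to 576 CPM in Mki67-low sums. Its log2 fold change was 1.04 (SE 0.85, adjusted p 0.815) in overlapping ranges, and that of Cplx2 was 0.46 (SE 1.03, adjusted p 0.945), or -0.0001 without library group 3. Cplx1 had medians of 46.4 and 61.8 CPM. For priming, Unc13a ran from 0.723 through 8.71 to 23.5 CPM in Mki67-high and from 3.86 through 40.9 to 258 CPM in Mki67-low sums. The estimate was a log2 fold change of 3.33 (SE 1.37, unadjusted p 0.0263, edgeR adjusted p 0.635, higher in 5 of 6 library groups), while its share at 10 CPM was 12 of 32 and 23 of 75 cells. With Mki67 limits of 200 CPM and 0 counts the estimate was -1.23. Unc13b, a second priming factor, was at -2.93 (SE 2.42, adjusted p 0.818), with 98.2% of the Mki67-high counts from 1 cell. Rims1, Rims2 and Rims3, of the active zone, had medians of 21.8, 4.86 and 37.6 CPM in Mki67-high and 53.6, 22.8 and 3.72 CPM in Mki67-low sums.

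Rab3a, the main Rab GTPase of synaptic vesicles, was at 10 CPM in 9 of 32 Mki67-high and 30 of 75 Mki67-low cells, with medians of 53.2 and 128 CPM in overlapping ranges. Rab3d, Rab3c and Rab3b were at 10 CPM in 8, 5 and 3 of 32 Mki67-high cells and 10, 6 and 3 of 75 Mki67-low cells. Snap91, also called AP180, assembles clathrin on membrane recovered after fusion. Its sums ran from 1.2 through 16.4 to 915 CPM in Mki67-high and from 105 through 713 to 1847 CPM in Mki67-low cells (log2 fold change 2.35, SE 1.32, adjusted p 0.725). It had the widest gap in shares, with 6 of 32 Mki67-high and 32 of 75 Mki67-low cells at 10 CPM, and 3 of 26 and 30 of 71 without the cells with genes of other types. In Mki67-high cells, 1 cell held 94.6% of its counts. Rab31, a Rab of endosomal traffic, was at 0.57 (SE 1.24) and at -0.10 without the cells with genes of other types, and Rab30 and Rab34, both linked to the Golgi apparatus, were at 4.73 (SE 1.96) and 4.35 (SE 2.53), with adjusted p of 0.942, 0.651 and 0.727. Rab33a was at 10 CPM in 3 of 32 and 11 of 75 cells.

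**Figure D4:**
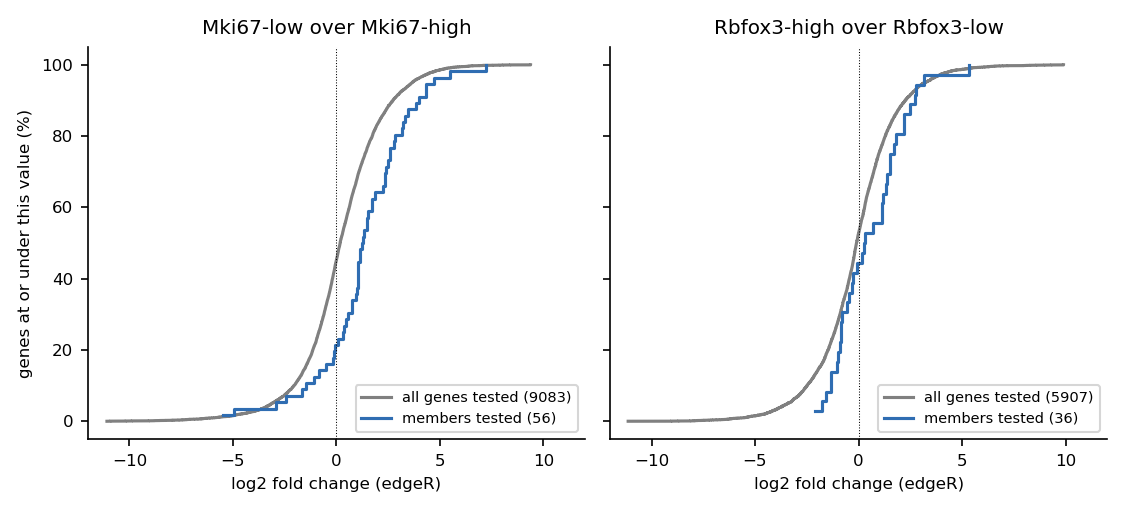
Cumulative share of genes by log2 fold change for all genes tested and for the genes of the set, in both comparisons. The line of the set lay to the right of that of all genes in most of its range, with medians of 1.25 and 0.18 by Mki67 level and of 0.29 and -0.10 by Rbfox3 level.

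The same genes were then compared among Mki67-low cells between Rbfox3-low and Rbfox3-high cells, that is, by the level of NeuN transcripts. Whether these classes are successive stages was not tested. The 2 comparisons share the Mki67-low cells, so their values are not independent of each other. In this comparison 36 of the 80 genes passed the filter and 0 were called, as 0 of 5907 genes tested were, or 0%. Sums were higher in Rbfox3-high cells for 20 of the 36 and lower for 16, while 47.2% of all genes tested were higher. The median log2 fold change of the 36 was 0.29, beside -0.10 for all genes tested. An unadjusted p under 0.05 was reached by 2 of the 36, beside 4.45% of all genes tested, and 4 differed in the same direction in 6 of 6 library groups, beside 3.3%. Median differences within library groups ran from -0.40 to 2.23. With library groups 1 to 6 left out in turn, the set's median was 0.40, 1.27, 1.09, 0.73, 0.27 and 0.47. The medians of all genes tested then lay between -0.11 and -0.05. Without the cells with genes of other types the set's median was 0.65, beside -0.09 for all genes. With the library groups as a block it was 1.16, beside 0.03 for all genes, with 25 of the 36 higher, beside 50.8% of all genes. With DESeq2, 2 of 51 genes of the set were called, beside 449 of 10985 genes tested. The counts were small for this fit: for genes at 10 CPM in 2 or more cells, 1 cell held a median of 65.8% of the Rbfox3-low counts.

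The 2 genes with an unadjusted p under 0.05 were both SV2 proteins. Sv2b ran from 5.82 through 35.3 to 320 CPM in Rbfox3-low and from 202 through 407 to 1058 CPM in Rbfox3-high sums. The 5 lower Rbfox3-low sums lay under every Rbfox3-high sum and the highest lay within their range. Its log2 fold change was 2.76 (SE 1.08, higher in 6 of 6 library groups, unadjusted p 0.0203, edgeR adjusted p 0.997). Of the cells, 9 of 31 and 17 of 32 had at least 10 CPM, and across the 75 Mki67-low cells its rank correlation with Rbfox3 was the highest of the 36 tested genes (Spearman's rho 0.309). The correlations of all genes tested lay between -0.213 and 0.193 at their 5th and 95th percentiles. Cells that share a library and a depth are not independent, so these are descriptions. Sv2a ran from 0.066 through 2.91 to 22.8 CPM and from 0.129 through 14 to 607 CPM, with a higher sum in 4 of 6 library groups (log2 fold change 5.35, SE 2.14, unadjusted p 0.0225, edgeR adjusted p 0.997). Syn2 and Syn3 were at 10 CPM in 3 of 31 Rbfox3-low cells each and in 4 and 2 of 32 Rbfox3-high cells.

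**Figure D5:**
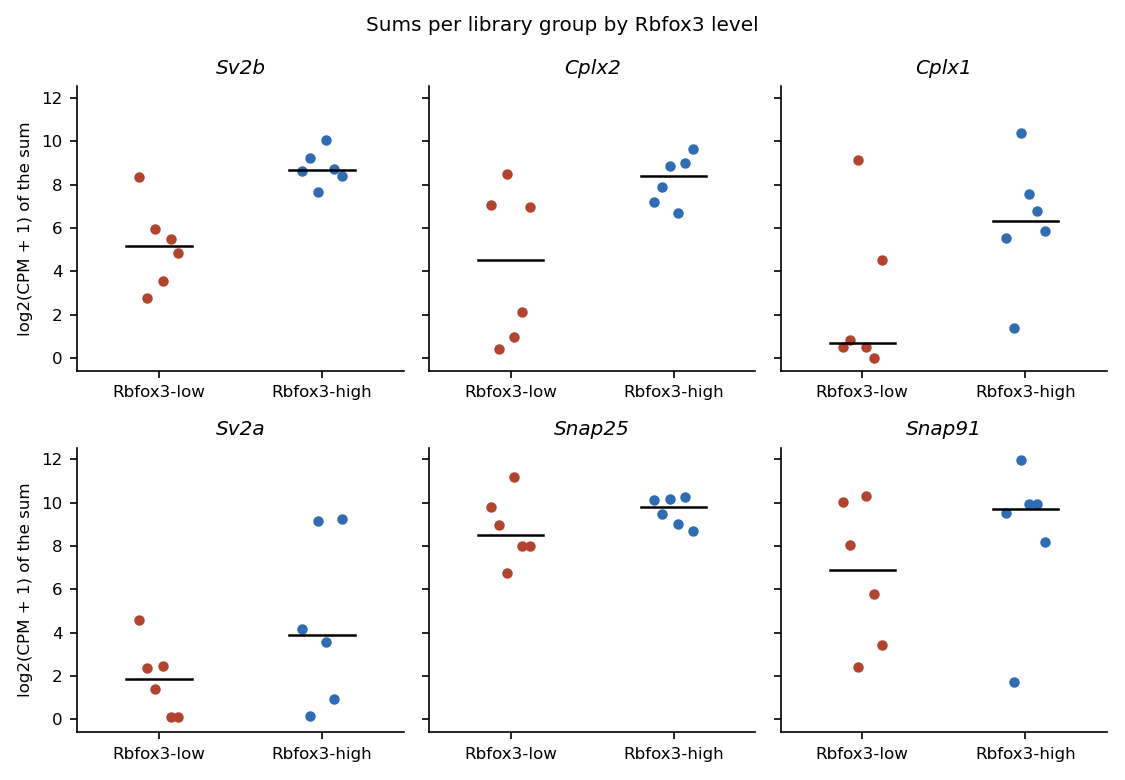
Sums per library group in Rbfox3-low and Rbfox3-high cells among Mki67-low cells, as log2(CPM + 1), for 6 genes, with 1 point a library group and the median as a line. All 6 genes overlapped between the classes, and the lowest of the 12 sums was a Rbfox3-low one for every gene but Snap91.

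Complexins were the second family on the higher side in Rbfox3-high cells. Cplx2 ran from 0.35 through 62.7 to 359 CPM in Rbfox3-low and from 103 through 352 to 786 CPM in Rbfox3-high sums, higher in 6 of 6 library groups (log2 fold change 1.79, SE 1.38, edgeR adjusted p 0.997). It was at 10 CPM in 9 of 31 and 18 of 32 cells. Cplx1 ran from 0 through 0.606 to 553 CPM and from 1.62 through 83.6 to 1315 CPM, also higher in 6 of 6 (log2 fold change 1.52, SE 1.91, adjusted p 0.997), with 2 of 31 and 9 of 32 cells at 10 CPM. In Rbfox3-low cells, 1 cell held 90.7% of its counts. Stxbp5 was the exception among the 5 tested regulators, above 0 in sums and below 0 on the mean of log2(CPM + 1); Stxbp5l was at 1.14 (SE 1.19, adjusted p 0.997).

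Among the target SNAREs, Snap25 ran from 108 through 379 to 2301 CPM in Rbfox3-low and from 410 through 908 to 1225 CPM in Rbfox3-high sums, within overlapping ranges (log2 fold change 0.17, SE 0.73, adjusted p 0.997). Its share at 10 CPM was 18 of 31 Rbfox3-low and 26 of 32 Rbfox3-high cells. Without the cells with genes of other types the estimate was -0.35, and without library groups 3 and 5 in turn it was -0.22 and -0.11. Stx12, an endosomal syntaxin, was at 3.17 (SE 1.97), while Stx7 was at -2.09 (SE 1.56), Stx5a at -1.58 (SE 1.98) and Stx6, a syntaxin of the trans-Golgi network, at -1.34 (SE 2.26), all with an adjusted p of 0.997. Stx5a turned to 0.29 without library group 5. For vesicle SNAREs, Vamp2 was at 10 CPM in 8 of 31 Rbfox3-low and 4 of 32 Rbfox3-high cells, Vamp3 in 7 and 2, and Vamp4 in 3 and 7.

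Syt11 ran from 84.1 through 963 to 3321 CPM in Rbfox3-low and from 706 through 934 to 2066 CPM in Rbfox3-high sums, so that the classes had nearly the same median (log2 fold change -0.46, SE 0.71, adjusted p 0.997). Without library group 2 its estimate was 0.076. Syt1 was at 10 CPM in 7 of 31 and 8 of 32 cells. Unc13a gave opposite pictures by sums and by cells. At 10 CPM it was found in 4 of 31 Rbfox3-low and 12 of 32 Rbfox3-high cells, and its sums were higher in Rbfox3-high cells in 5 of 6 library groups. Its log2 fold change was nevertheless -1.77 (SE 1.89, adjusted p 0.997), with 88.6% of the Rbfox3-low counts from 1 cell, and it was 2.11 without library group 3 and 1.35 on the mean of log2(CPM + 1). Rims2 was at 2.71 (SE 2.17, adjusted p 0.997, higher in 3 of 6 library groups) and -0.31 with Rbfox3 limits of 1 count and 0 counts. Rab3a was at 10 CPM in 8 of 31 and 14 of 32 cells.

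Of the genes matched by letters, Snap91 ran from 4.38 through 157 to 1277 CPM in Rbfox3-low and from 2.26 through 850 to 3949 CPM in Rbfox3-high sums, with 8 of 31 and 18 of 32 cells at 10 CPM, the widest gap of the set. Its sums were higher in 3 of 6 library groups (log2 fold change 1.51, SE 1.27, adjusted p 0.997). Rab30 was higher in 6 of 6 library groups (log2 fold change 2.21, SE 2.16, adjusted p 0.997), and Rab31 was at -0.56 (SE 1.54, adjusted p 0.997).

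Other genes of the vesicle cycle were counted in the same way. Of 47 listed, 45 were in the table. In the Mki67 comparison 37 were tested and 0 called. Of the 37, 5 had an unadjusted edgeR p under 0.05, all with higher sums in Mki67-low cells, beside 7.33% of all genes tested. The median log2 fold change of the 37 was 1.38, beside 0.18 for all genes tested. In the Rbfox3 comparison 30 were tested and 0 called, and 0 had an unadjusted edgeR p under 0.05, beside 4.45% of all genes tested. The median of the 30 was 0.14, beside -0.10 for all genes tested. Among those with the highest means were Cadps2 and Cask, at 826 and 475 CPM. Cask, a presynaptic scaffold, reached 10 CPM in 18 of 32 Mki67-high and 55 of 75 Mki67-low cells (log2 fold change 2.10, edgeR adjusted p 0.47), and Cadps2, which primes dense-core vesicles, in 19 of 32 and 41 of 75 (1.17, adjusted p 0.763). Synaptophysin (Syp), the classical vesicle marker, was at 10 CPM in 7 of 32 Mki67-high and 20 of 75 Mki67-low cells, and the vesicular glutamate transporter Slc17a7 in 0 of 32 and 3 of 75, whereas its relative Slc17a6 was found in 12 of 32 and 15 of 75.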

How the data were processed

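Single cells prepared from cerebella at postnatal day 7 were sequenced one library per cell. Per the labels and the study's methods, reads were mapped to mm10 by the authors (STAR 2.4.1d), assigned to genes with HTSeq 0.6.1, and deposited as raw counts with no normalization; annotation and strand setting are not given in the sources used here. The 15973 listed genes each have a count in at least 3 cells. Counts were divided by each cell's total to give CPM. All 109 cells were kept, no doublet caller was run and no depth filter was set, so a level of 10 CPM rests on few reads in shallow cells.

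Genes were selected by their symbols, and the members and lists were chosen with earlier results of these data known. Positions and exon lengths came from GENCODE M21 (GRCm38), which held 78 of the 80 genes. Raw counts were summed per class and library group (numbered in the order of the samples), filtered with filterByExpr, scaled by TMM and tested with edgeR 4.0.16 in R 4.3.3, with an adjusted p under 0.01 called; Mki67 and Rbfox3 were not tested. Printed sums are CPM of the summed counts, without TMM. Means and shares were computed in Python 3.11.15 with scipy 1.17.1. The alternatives were DESeq2 1.42.0, no filter, a block for library groups, limma 3.58.1 with this block on mean log2(CPM + 1), other limits for the classes, the threshold 0.05, cells left out (under 1000000 counts, over 10000 genes, or with at least 4 markers of another cell type at 50 CPM), each library group left out, counts thinned to 1110182 per cell and a minimum of 5 counts. The level of 10 CPM and the combinations of genes per cell were chosen after the values were seen. The tests were tried on simulated counts. Genes named with values were the 4 with the highest mean CPM of each role, those called and the 4 largest and 4 smallest fold changes of each comparison, with others named after their values were seen (Stx1a, Syt2, Vamp1, Syn1, Stx5a and Stx6 as partners or by their shares, Syp, Slc17a6 and Slc17a7). Some genes that this rule names are not reported here, while counts and medians of the set include them. Fold changes were given for the genes among the 8 of highest mean CPM, the extremes, those with an unadjusted p under 0.05 and those of 1 direction in every library group.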

Additional observations from a re-analysis of the deposited data

Results flagged for a closer look

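For the genes with a printed fold change, the 6 sums of each class were examined on the log2(CPM + 1) scale for a single sum far from the others, in 68 sets of 6. Chance flags about 1 in 20 such sets, and 7 were found. Among Mki67-high sums, Stxbp5l stood at 3.35 CPM in library group 4, beside 69.1 to 311 CPM in the others. Syt13 stood at 449 CPM in library group 5, beside 0.075 to 4.45 CPM, and Unc13b at 638 CPM in library group 4, beside 0 to 4.94 CPM. In library group 2, Rab31 was at 0.447 CPM in Mki67-low cells, beside 84.2 to 750 CPM. In its Rbfox3-high cells Rab31 was at 0.129 CPM, beside 104 to 804 CPM, Snap91 at 2.26 CPM, beside 292 to 3949 CPM, and Stx7 at 0.065 CPM, beside 32.4 to 146 CPM. These last 3 come from the same cells of 1 library group.

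The 2 cells between the Mki67 limits entered no comparison. The cell with 21.3 CPM of Mki67 had 10 of the 80 genes at 10 CPM or more. The cell with 66.4 CPM had 11, but a total of 15071 counts, so that a single count exceeds 10 CPM there.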

How the results depend on the processing

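In the Mki67 comparison 2 genes were called in all, beside 376 with DESeq2, 114 with the mean of log2(CPM + 1), 6 at a threshold of 0.05, 1 without unusual cells or without cells with genes of other types, 0 with the replicate block, 0 with Mki67 limits of 200 CPM and 0 counts, and 0 to 1 with each library group left out. Genes of the set called were 0 except with DESeq2. By Mki67 it called 3 of 64 (among them Rab3gap1 and Rab32), beside 376 of 12585 genes tested. By Rbfox3 it called 2 of 51 (Syt9 and Unc13c), beside 449 of 10985 genes tested. Rab32 and Unc13c had counts in 3 and 4 of the 109 cells. The set's median turned to -0.0624 with the mean of log2(CPM + 1) and, by Rbfox3, was 2.45 with limits of 1 count and 0 counts, beside 1.11 for all genes there.

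The 18 genes by Mki67 and 16 by Rbfox3 with a printed fold change gave 230 and 220 values under alternatives. Of these values, 11 and 16 changed sign. Over all 56 genes of the set tested by Mki67, 44 were above 0 in the main fit and 25 on the mean log. These are 78.6% and 44.6%, beside 54.8% and 24.4% of all genes tested. Of the 36 tested by Rbfox3, 20 and 22 were above 0. These are 55.6% and 61.1%, beside 47.2% and 48.3% of all genes tested. By Mki67, Rab31 went to -0.26 (mean log) and -0.10 (without cells with genes of other types), Vamp3 to -0.55 (mean log) and -0.0268 (other limits), Syt9 to 0.41 (block) and 1.96 (other limits), and Unc13a to -1.23 (other limits). With each library group left out, Cplx2 ran from -0.0001 to 1.67, Stx4a from -6.09 to 0.0185, Syt13 from -7.51 to 0.38 and Syt9 from -3.85 to 2.30. By Rbfox3, other limits gave Rab30 -1.33, Rims2 -0.31, Stx5a 1.81, Syt11 0.57 and Unc13a 6.36, the block gave Stx5a 1.58, Syt11 0.30 and Unc13a 1.95, the mean log gave Stx6 0.38 and Unc13a 1.35, and leaving out cells with genes of other types gave Snap25 -0.35. With each library group left out, Snap25 ran from -0.22 to 1.21, Stx5a from -2.60 to 0.29, Syt11 from -0.71 to 0.076 and Unc13a from -2.45 to 2.11. The cause was not tested.

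The main fit had no block for library groups, as the study's methods describe none, and the block was an alternative. Sums of a library group deviated together only weakly (correlations up to 0.0558). The labels do not say that a code marks a batch, though the study reports independent batches of cells. Both classes of a library group nevertheless carry the same code, and with the block 0 genes were called and the set's medians were 1.80 by Mki67 and 1.16 by Rbfox3. The median number of genes of the set with a count per cell, 26 in Mki67-high and 24 in Mki67-low cells, was 20 and 19 after thinning and 14 in both with a minimum of 5 counts. Levels of 1 to 5 counts, and genes carried by 1 cell of a class, limit what these sums can show.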
